A study of Mus musculus with 6 samples.

Results

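The motile machinery of the sperm tail is described here through 35 genes for axonemal dyneins, tektins, radial spokes, the central pair apparatus, microtubule-linked complexes and intraflagellar transport. They were chosen by name from knowledge of the flagellum, with earlier results of these data known. Of the 35, 34 were measured, by 54 probe sets that the array annotation pairs with a single gene, out of 18193 genes named by such probe sets. Cfap44 was not analysed here. Each gene is represented by its brightest probe set over all 6 arrays, and 15 of the 34 genes had further probe sets. The arrays, Affymetrix whole-genome mouse expression arrays, were hybridised with RNA from freshly dissected testis of adult C57BL/6 x CBA hybrid mice, 3 arrays for wild type and 3 for mice with a DREAM transgene that encodes a constitutively active mutant. DREAM (KChIP3, encoded by Kcnip3) is a calcium-binding transcriptional repressor. The promoter that drives the transgene, the number of founder lines and the age of the adults are not given in the sources used here. All values are log2 intensities, and a difference of 1 is 2-fold.

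The flagellum is built on an axoneme, a ring of doublet microtubules around a central pair. Outer and inner dynein arms slide neighbouring doublets past each other, radial spokes pass signals from the central pair to the arms, and the nexin-dynein regulatory complex links doublets and turns sliding into bending. Tektins are filamentous proteins within the doublets. Intraflagellar transport carries building material along a growing cilium or flagellum. In testis the transcripts of these genes come largely from meiotic and haploid germ cells. Of these cells' markers, the 10 spermatocyte markers averaged 9.12 to 9.23 per wild-type array and 8.93 to 9.04 per transgenic array, without overlap. The 9 measured round spermatid markers averaged 10.56 to 10.59 and 10.50 to 10.61. The 10 elongating spermatid markers (protamines, transition proteins and others) averaged 13.3 to 13.35 and 13.34 to 13.38, near the top of the arrays' range.

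The brighter Kcnip3 probe set was at 7.21 ± 0.11 in wild type and 7.27 ± 0.11 in the transgenic group (SD, n = 3), a difference of 0.06. Whether its probe sets match the transgene is not given in the sources used here, so the labels could not be checked in this way. Wild type replicate 2 stood apart on the first principal component, at 42.2 against -23.3 to 5.3 for the other arrays. The difference between the 3' and 5' Gapdh control probe sets, a measure of RNA integrity, ran from 0.06 to 0.16 in wild type and from 0.21 to 0.33 in transgenic testis. For the beta-actin control probe sets the same measure ran from 0.41 to 0.50 in wild type and from 0.47 to 0.53 in transgenic testis, with overlap. The Gapdh ranges of the groups were separate, so a fit with the Gapdh difference as a covariate cannot tell it apart from genotype. Its part in the differences below was not tested.

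None of the 34 genes passed the test between genotypes (limma, Benjamini-Hochberg over all 45037 probe sets, adjusted p under 0.05), where 0.616% of all genes did. An unadjusted p under 0.05 was reached by 1 member, Dnah8, against 7.48% of all genes, and other variance models called it. Of the 54 probe sets of these genes 0 passed (0.444% of all probe sets) and 1 had an unadjusted p under 0.05 (6.69%). The median difference, transgenic minus wild type, was -0.03 over the members (21 below 0 and 13 above), against 0.02 over all genes and -0.03 (-0.025) over 106 other genes of the same structures. For 24 of the 34 the difference was under 0.1 in size, as it was for 57.7% of all genes, and for 22 it was smaller than the pooled SD of the replicates. The 95% interval lay within 1.5-fold in both directions for 32 of the 34 genes (93.4% of all genes) and within 2-fold for 34. Dnah8 and Spag17 were the exceptions at 1.5-fold. The groups did not overlap for Dnah8, Tekt4 and Spag16, all lower in transgenic testis, which is 3 of 34 where 12.5% of all genes had separate groups and 5.65% had them with transgenic testis lower. Over the 54 probe sets, 3 were separate and lower and 1, a dim one of Ttll1, separate and higher, against 11.3% of all probe sets with separate groups (4.95% lower).

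**Figure D1:**
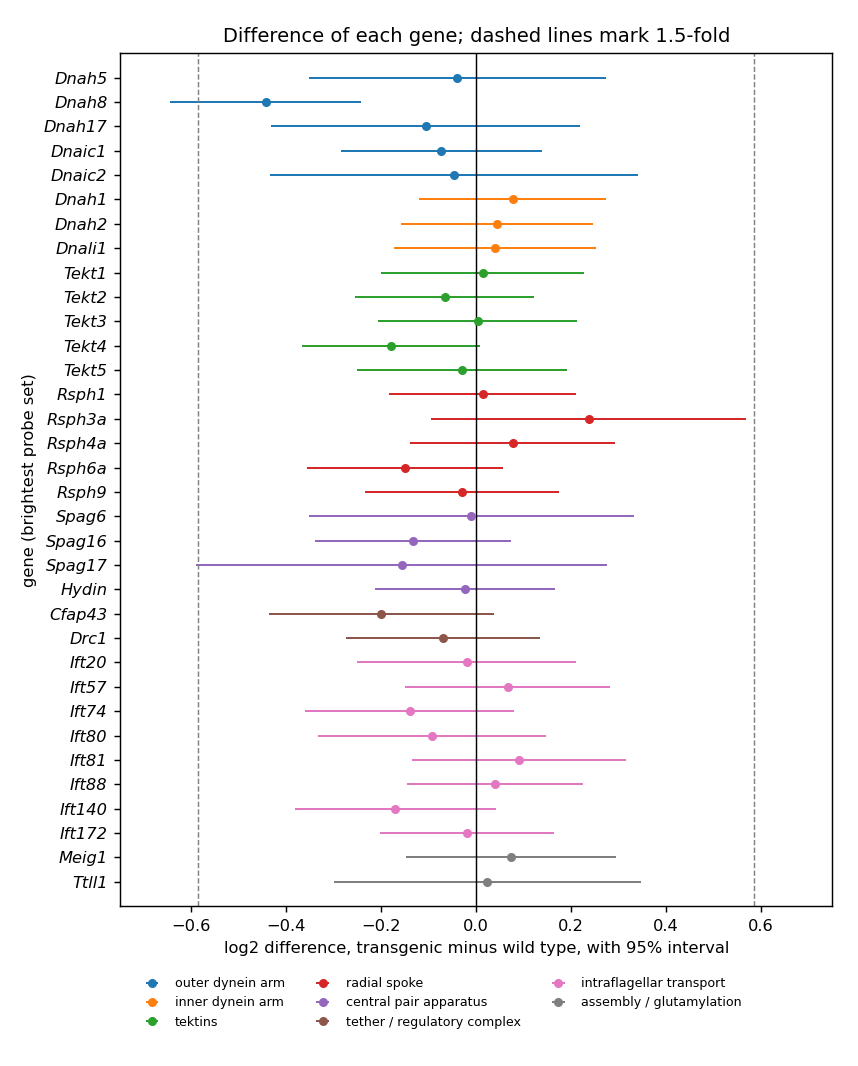
Log2 difference (transgenic minus wild type) of the 34 genes with the 95% limma interval, 1 brightest probe set a gene, coloured by role. The interval of Dnah8 is the only one among them that leaves out 0, and dashed lines mark 1.5-fold.

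The outer dynein arm held the member that differed most. Dnah8, the outer arm heavy chain of the sperm flagellum, read 12.85, 12.78 and 12.71 on the wild-type arrays and 12.36, 12.26 and 12.39 on the transgenic arrays. The transgenic values all lay below the wild-type values, and the gap between the groups, from 12.39 to 12.71, was wider than the range within either. The difference was -0.44 (SE 0.09, 95% interval -0.64 to -0.24, a 1.36-fold lower intensity), with limma adjusted p = 0.103, above the threshold. It passed with an intensity trend and robust variance (adjusted p = 0.00181) and with array weights (-0.39, adjusted p = 0.0226). Leaving out each array in turn kept the difference between -0.48 and -0.41, with adjusted p from 0.0812 to 0.403. With the Gapdh difference as a covariate it was -0.52 (SE 0.17, adjusted p = 0.382). The other Dnah8 probe set was dim, at 4.45 ± 0.10 and 4.36 ± 0.04 (difference -0.09, adjusted p = 0.952), where the arrays give no detection call, and the mean of both differed by -0.27 (adjusted p = 0.24). By its name suffix, the bright probe set may detect more than 1 transcript of the gene. In whole testis, fewer cells of a type and less RNA per cell cannot be told apart.

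The gene next to Dnah8 on chromosome 17 in the RefSeq order of GRCm38.p6, Glo1, was looked at after the Dnah8 values were seen. Glo1 encodes glyoxalase I, which detoxifies methylglyoxal. With its brightest probe set Glo1 read 8.91, 9.24 and 9.03 in wild type and 8.49, 8.54 and 8.49 in transgenic testis, a difference of -0.55 (SE 0.10, limma adjusted p = 0.0743). This difference of Glo1 passed with repeated quantile normalization, trend and robust eBayes, array weights and averaged probe sets (adjusted p = 0.0242, 0.0327, 0.00508 and 0.0311). With the Gapdh covariate Glo1 read -0.34 (adjusted p = 0.561). Glo1 was lower by a similar amount with its next probe sets, at -0.48 and -0.66 (adjusted p = 0.149 and 0.0629), with no overlap of the groups in any of the 3, and read -0.03 with its dimmest, at 4.76 ± 0.21 in wild type. The nearest genes beyond had overlapping groups with each of their probe sets. Btbd9 read -0.04, 0.21 and -0.07 with its probe sets, and Zfand3 -0.02 with its brightest and from -0.19 to 0.02 with the others. On the other side of Dnah8, Glp1r read 0.08 at a wild-type level of 4.55 ± 0.42. Beyond it, Umodl1 read -0.19 and Abcg1 0.18 and 0.10. Rsph1, a member with 8 protein-coding genes between it and Dnah8, differed by 0.01 (95% interval -0.18 to 0.21). As background, the chromosomal segment around Glo1 is known to vary in copy number between laboratory mouse strains, and the mice here are of a hybrid background. Copy number was not measured, and its part in the values of Dnah8 and Glo1 was not tested.

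The sequence before the annotated start of Dnah8 is shown because Dnah8 was the member that differed most and DREAM is known to bind a downstream regulatory element with the core GTCA. The 250 bases ending at the start are from RefSeq (GRCm38.p6, chr17:30626686-30626935, plus strand), with GTCA or its reverse complement TGAC in capitals.
Dnah8: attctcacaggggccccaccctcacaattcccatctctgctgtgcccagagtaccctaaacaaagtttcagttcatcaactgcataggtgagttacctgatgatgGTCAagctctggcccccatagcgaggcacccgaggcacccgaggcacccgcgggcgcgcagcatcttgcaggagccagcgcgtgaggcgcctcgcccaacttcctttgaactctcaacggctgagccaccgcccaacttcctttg
The window held 1 match. Of the 35 genes, 30 had such a window (the one with most matches was taken where a gene has several starts), and 26 of the 30 (86.7%) held the core on either strand, against 82.5% of 27025 genes. The median number of matches was 1 in the members and 2 in all genes. So short a core is found in most windows, and a match says nothing of binding. Bases downstream of the start were not searched, so an element lying there would be missed.

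**Figure D2:**
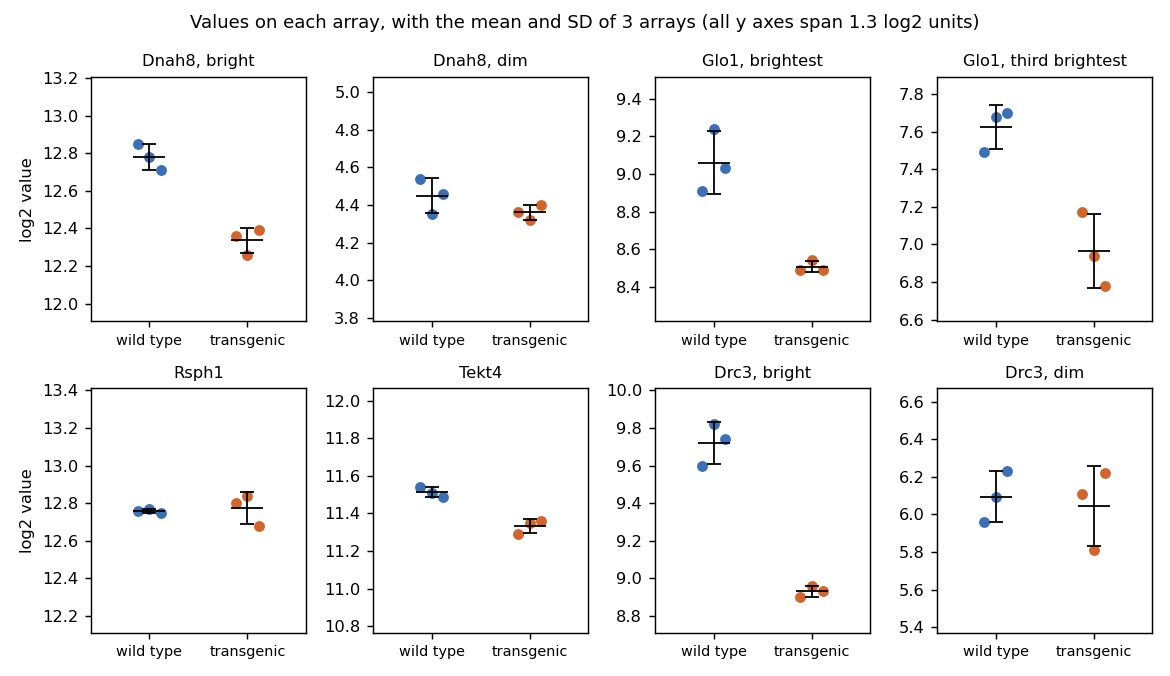
Log2 values on each array (points) with the mean and SD of 3 arrays (black) for 8 probe sets; all vertical axes span 1.3 log2 units and none starts at 0. The bright probe set of Dnah8 (12.71 to 12.85 against 12.26 to 12.39), the Glo1 probe sets, Tekt4 and the bright probe set of Drc3 show separate groups, and Rsph1 and the dim probe sets overlap.

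The other outer arm genes showed no separation of the groups. Dnah17, the other heavy chain of the sperm outer arm, read 6.84, 6.46 and 6.66 in wild type and 6.43, 6.38 and 6.83 in transgenic testis. Its groups overlapped almost fully, with a difference of -0.11 (95% interval -0.43 to 0.22, limma adjusted p = 0.968). With the Gapdh covariate Dnah17 read -0.68 (SE 0.19, adjusted p = 0.346). Dnah5, the heavy chain of the outer arm in motile cilia of other tissues, read 4.97 ± 0.20 and 4.93 ± 0.22 and lay below the median of all probe sets. The intermediate chain genes Dnaic1 and Dnaic2, which anchor the heavy chains, differed by -0.07 (95% interval -0.28 to 0.14) and -0.05 (95% interval -0.43 to 0.34). All 5 outer arm genes lay below 0, by -0.44 to -0.04, although the dimmer probe set of Dnaic2 read 0.15 and that of Dnaic1 0.00. Each of the inner arm genes lay slightly above 0. Dnah1, an inner arm heavy chain needed for a normal sperm tail, read 9.42, 9.42 and 9.31 against 9.51, 9.40 and 9.47. Dnah2, another inner arm heavy chain, read 9.63, 9.58 and 9.59 against 9.66, 9.54 and 9.73. Differences were 0.08 for Dnah1, 0.04 for Dnah2 and 0.04 for Dnali1, the inner arm light intermediate chain, with 95% intervals from -0.17 to 0.27 over the 3 genes. The second probe sets of Dnah2 and Dnali1 lay on the other side of 0, at -0.13 and -0.09, and that of Dnah1 again at 0.08.

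Among the tektins, Tekt4 was the member of smallest unadjusted p after Dnah8. Tekt4 read 11.54, 11.51 and 11.49 in wild type and 11.29, 11.35 and 11.36 in transgenic testis. The groups were separate and narrow, and the difference of -0.18 had a 95% interval from -0.37 to 0.01 (unadjusted p = 0.0578, limma adjusted p = 0.764). Tekt2 read 11.78, 11.75 and 11.71 against 11.66, 11.73 and 11.65, a difference of -0.07 with overlapping groups. Tekt1, Tekt3 and Tekt5 differed by 0.01, 0.003 and -0.03, with 95% intervals that reached -0.25 at most on the low side and 0.23 on the high side. Each tektin was measured by 1 probe set.

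The radial spoke genes went in both directions, and none of them had separate groups. Rsph3a, for a spoke stalk protein, had the largest increase of any member, at 6.36, 6.82 and 6.39 in wild type and 6.65, 6.98 and 6.65 in transgenic testis (0.24, 95% interval -0.09 to 0.57, limma adjusted p = 0.872). Wild type replicate 2 lay above 2 of the 3 transgenic arrays, and the second, dimmer probe set read -0.01. With the Gapdh covariate Rsph3a read 0.56 (SE 0.27, adjusted p = 0.505). Rsph6a, the spoke head protein of sperm, read 10.58, 10.64 and 10.68 against 10.47, 10.59 and 10.39, a difference of -0.15 (95% interval -0.36 to 0.06). Rsph4a, its counterpart in the cilia of other tissues, was at the low reading of 3.72 ± 0.06 and 3.79 ± 0.12, below the median of all probe sets, where a change could not be seen. Rsph1 and Rsph9, also of the spoke head, differed by 0.01 and -0.03.

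Among the central pair genes the arrays of a genotype lay far apart for Spag17 and Spag6 and close together for Hydin. Spag17, a large central apparatus protein, read 7.08, 7.89 and 7.57 in wild type and 7.54, 7.39 and 7.14 in transgenic testis. The wild-type arrays alone spanned 0.81, far more than the difference of -0.16 (95% interval -0.59 to 0.28), and its second probe set read 0.14. Spag16, a WD-repeat protein of the central apparatus, read 10.16, 10.34 and 10.15 against 10.09, 10.05 and 10.11. These groups were separate by a small gap, with a difference of -0.13 (95% interval -0.34 to 0.07, adjusted p = 0.904), while the other Spag16 probe sets read 0.00, -0.09 and 0.15. Spag6, an armadillo-repeat protein, differed by -0.01 with an SD of 0.31 in transgenic testis. Hydin, of a central pair projection, differed by -0.02 with the brighter probe set (SD 0.04 in each group) and 0.21 with the dimmer.

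Spag16 and Hydin, but not Spag6 or Spag17, also carried a sequence feature that the choice of genes did not use. The X-box (GTTNCC, then any 3 bases, then GNAAC, searched on both strands) is bound by RFX factors, which are known regulators of cilium genes. In the 250 bases ending at the RefSeq start it was found in 3 of 30 member genes, against 0.784% of all genes. The matches are shown with the fixed letters in capitals, at GRCm38.p6 chr1:69826867-69826880 (plus strand) for Spag16, chr8:110266956-110266969 (minus strand) for Hydin and chr16:44394772-44394785 (minus strand) for Cfap44, whose transcript was not analysed here.
Spag16: GTTgCCgtaGtAAC
Hydin: GTTgCCacaGcAAC
Cfap44: GTTgCCataGcAAC
They began 102, 20 and 26 bases before the start. The shorter site GTTGCC, also searched on both strands, which can be part of an X-box, was held by 10 of 30 member genes (33.3%) and by 11.8% of all genes. Neither motif is in the window of Dnah8, and these matches are descriptions, not sites of binding. Rfx4, the RFX gene of smallest p among those measured, read 8.60 ± 0.06 and 8.52 ± 0.07 (-0.09, adjusted p = 0.955).

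Of the complexes that tie microtubules together, Cfap43, a component of the tether of the inner arms, differed by -0.20 with its brightest probe set (95% interval -0.44 to 0.04, limma adjusted p = 0.821). It read 10.02, 9.77 and 9.79 in wild type and 9.58, 9.78 and 9.62 in transgenic testis, so that 1 transgenic array lay within the wild-type range. The other Cfap43 probe sets read -0.11 and -0.23. Drc1, a scaffold of the nexin-dynein regulatory complex, read 10.03, 9.94 and 9.94 against 9.97, 9.80 and 9.93, with overlapping groups and a difference of -0.07.

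The 8 intraflagellar transport genes differed by -0.17 to 0.09. Ift140, of the complex that returns cargo to the cell body, read 11.62, 11.60 and 11.52 in wild type and 11.52, 11.30 and 11.41 in transgenic testis, a difference of -0.17 (95% interval -0.38 to 0.04, adjusted p = 0.836). Its groups touched at 11.52. Ift74, of the complex that carries cargo outward, read 10.99, 10.76 and 10.91 against 10.66, 10.82 and 10.76 (-0.14, 95% interval -0.36 to 0.08), with overlap. Ift172 was the steadiest member, with all 6 arrays between 11.65 and 11.69 and an SD of 0.01 in each group. Ift88, whose loss blocks flagellum formation, differed by 0.04 (95% interval -0.15 to 0.23). Ift20, Ift57, Ift80 and Ift81 differed by -0.02, 0.07, -0.09 and 0.09.

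Meig1, which is needed for spermiogenesis, read 12.71, 12.76 and 12.81 in wild type and 12.81, 12.98 and 12.71 in transgenic testis (0.07, 95% interval -0.15 to 0.30). Ttll1, a polyglutamylase of axonemal tubulin, read 8.15, 8.75 and 8.52 against 8.57, 8.45 and 8.47, a difference of 0.02. Its wild-type arrays spanned 0.60 and its transgenic arrays 0.12.

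The spread of Ttll1 was shared by several probe sets, looked at after their values were seen. In 7 of the 54 probe sets the wild-type arrays spanned more than 0.4, with wild type replicate 1 lowest and replicate 2 highest in each. They were of Ttll1 (0.60 and, with a second probe set from 6.94 to 8.26, 1.32), Spag17 (0.81), Dnaic2 (0.61), Rsph3a (0.46), the dimmest of Cfap43 (0.76) and the second of Spag16 (0.51). Just below that limit, the second Cfap43 probe set (a range of 0.39) had the same order. The second Rsph3a probe set (0.40), Dnah17 (0.38) and Dnah5 (0.37), all dimmer than it, had replicate 1 highest and replicate 2 lowest. Over the 34 genes replicate 1 was the lowest of the wild-type arrays in 14 and the highest in 14, and replicate 2 was the highest in 14 (41.2%, against 46.2% of all genes). Over the 106 other genes of the same structures the order was more frequent. There replicate 1 was the lowest in 64.2% (40.9% of all genes) and replicate 2 the highest in 62.3%. Across members the SD in wild type ran from 0.01 to 0.41 (median 0.06, against 0.13 over all genes) and in transgenic testis from 0.01 to 0.31 (median 0.10, against 0.10). Of the 15 genes with several probe sets, 5 had all of them on 1 side of 0, and within a gene the differences spanned at most 0.35, in Dnah8.

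**Figure D3:**
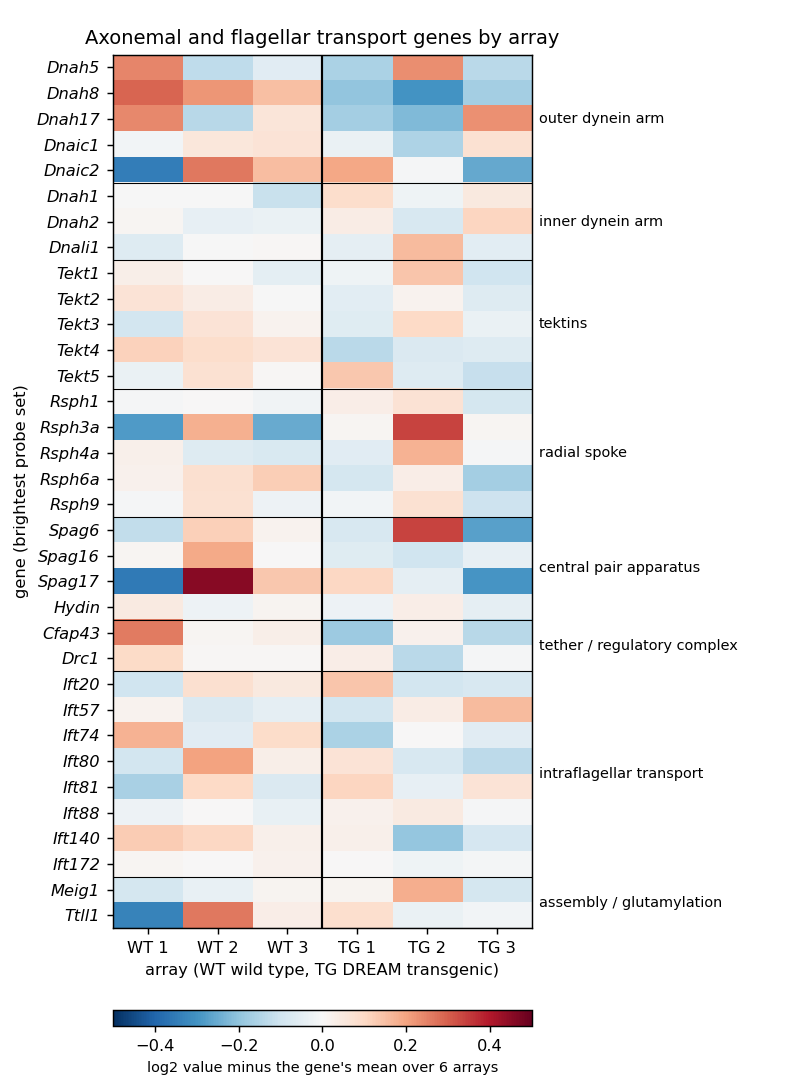
Log2 value of each of the 34 genes on each array minus that gene's mean over the 6 arrays, grouped by role, red above and blue below. Dnah8 changes colour between the genotypes, while Spag17, Dnaic2 and Ttll1 are low in wild type replicate 1 and high in wild type replicate 2.

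The other genes of the same structures were given by a list of 125, of which 106 were measured. Of these 1 passed the test, Drc3, and it was lower, where 0.616% of all genes passed. An unadjusted p under 0.05 was reached by 9 of the 106, a share near the 7.48% of all genes. The groups were separate with transgenic testis lower for 12 of the 106 and higher for 3. Of all genes 12.5% had separate groups, and 5.65% had them with transgenic testis lower. Differences lay below 0 for 64 of the 106 and above 0 for 41. Drc3, another subunit of the nexin-dynein regulatory complex, read 9.60, 9.82 and 9.74 in wild type and 8.90, 8.96 and 8.93 in transgenic testis. The groups lay far apart, and the difference was -0.79 (SE 0.09, 1.73-fold lower, limma adjusted p = 0.00765). Without wild type replicate 3 or transgenic replicate 1, 2 or 3 the adjusted p was 0.0627, 0.068, 0.0606 and 0.064, with differences from -0.81 to -0.78. With the Gapdh covariate the difference was -0.67 (adjusted p = 0.339). The dimmer Drc3 probe set, at 6.09 ± 0.14 and 6.05 ± 0.21, read -0.05, and the mean of both -0.42 (adjusted p = 0.0873), so the change of Drc3 rests on 1 probe set.

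The upstream sequence of Drc3 is shown beside that of Dnah8 because Drc3 was the axonemal gene that passed. It is the 250 bases ending at the start (RefSeq, GRCm38.p6, chr11:60353130-60353379, plus strand), with GTCA and TGAC in capitals.
Drc3: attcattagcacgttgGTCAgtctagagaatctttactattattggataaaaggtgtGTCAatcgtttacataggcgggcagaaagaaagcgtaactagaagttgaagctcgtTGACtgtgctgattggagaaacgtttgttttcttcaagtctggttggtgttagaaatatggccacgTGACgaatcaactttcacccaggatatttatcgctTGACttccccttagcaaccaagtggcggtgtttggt
It held 5 matches, a number that 5.02% of all genes reach or exceed. The window of Drc1, a member of the same complex that differed by -0.07, held 6, and matches say nothing of binding. Here too, bases downstream of the start were not searched.

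Among the further dynein arm genes Wdr63, an inner arm intermediate chain, read -0.38 and the heavy chain Dnah7a -0.10 (limma adjusted p = 0.502 and 0.945). In assembly and docking, Ccdc114, of the outer arm docking complex, read -0.21 and the assembly factor Dnaaf2 0.20 (adjusted p = 0.836 and 0.869). Nme5, a radial spoke protein, read 10.85, 10.92 and 10.96 against 10.55, 10.65 and 10.58, a separate pair of groups with a difference of -0.32 (adjusted p = 0.306), while Cfap61, of the spoke base, read 0.32 (adjusted p = 0.609). Spag8 and Spef2 read 0.12 and -0.07, and Iqcd, of the regulatory complex, -0.14 (adjusted p = 0.933, 0.968 and 0.863). The inner microtubule genes Cfap45 and Cfap53 read -0.23 and -0.22 (adjusted p = 0.646 and 0.805). Ttc30b, of the outward transport complex, read -0.46 and Kifap3, of its kinesin motor, -0.24 (adjusted p = 0.547 and 0.733). The glycylase-family gene Ttll10 read -0.28 and the glutamylase gene Ttll6 0.20 (adjusted p = 0.447 and 0.72), and Myb, the other transcription factor of smallest p beside Rfx4, 0.19 at the low level of 4.92 ± 0.10. Over both lists together Drc3, Ttc30b, Dnah8 and Wdr63 lay farthest below 0.

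**Figure D4:**
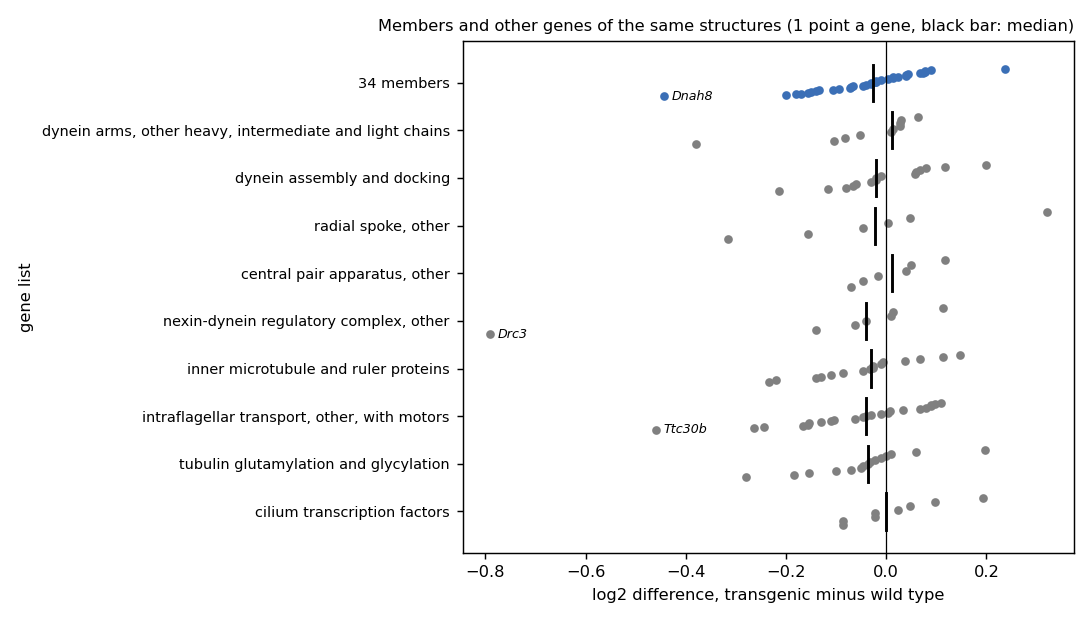
Log2 difference (transgenic minus wild type) of the 34 members (blue) and of 106 other axoneme and cilium genes in 9 lists (grey), 1 point a gene, with the median of each list as a black bar. The medians lie between -0.04 and 0.01, and Drc3 at -0.79, Ttc30b at -0.46 and Dnah8 at -0.44 are named.

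Markers of the cells that could carry these transcripts were set beside them. The 10 spermatocyte markers were lower in 9 cases, with a median of -0.185, no call, and a mean level per array of 9.12 to 9.23 in wild type and 8.93 to 9.04 in transgenic testis. The exception, Mybl1, had the largest difference of the list, 0.71 higher with separate groups (adjusted p = 0.0852), and the largest decrease was that of Meiob, at -0.58 (adjusted p = 0.303). The 9 measured round spermatid markers had a median of -0.06 (10.56 to 10.59 and 10.50 to 10.61) and the 10 elongating spermatid markers one of 0.002. The 7 measured markers of multiciliated epithelium, such as that of the efferent ducts, had a median of 0.02 and overlapping levels of 7.24 to 7.35 and 7.22 to 7.36, with Foxj1 at 8.85 ± 0.10 and 8.77 ± 0.14. Endothelial markers were above 0 in 5 of 5 cases (median 0.24, levels of 5.22 to 5.31 and 5.47 to 5.54) and macrophage markers in 4 of 4 (median 0.20, 5.98 to 6.26 and 6.30 to 6.33). The 3 peritubular myoid markers were all below 0 (median -0.11), with overlapping levels. Of 5 measured epididymis markers 4 were above 0 (median 0.07), and Rnase10 read -0.60 with separate groups (limma adjusted p = 0.0647). Spermatogonial, Sertoli cell and erythroid markers had medians of -0.01, -0.01 and 0.06. Over all genes, 10319 of 18193 were above 0. Of all markers only Hsd3b1, a steroidogenic enzyme of Leydig cells, passed the test, and it rose by 1.48 (limma adjusted p = 0.00109). The other Leydig cell markers differed by 0.91 (Hsd17b3, adjusted p = 0.146), 0.03 (Cyp17a1), 0.01 (Star) and -0.06 (Cyp11a1), and the list's median was 0.03. The part of the cell types of these markers in the values of Dnah8 and Drc3 was not tested.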

How the data were processed

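The authors deposited log2 values per probe set, made with RMA and the affy package per the submitters' processing notes, with no version or parameters. Since RMA equalises the arrays' distributions, a change common to all transcripts is not visible, and there is no call of presence or absence. Per the labels, the 3 arrays of a genotype are independent biological replicates, and this number limits the precision. No array was a copy of another (at most 2.61% of probe sets had equal values on 2 arrays).

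The 64 control probe sets were left out and the other 45037 tested with limma 3.58.1 in R 4.3.3 (lmFit, eBayes, two-sided, transgenic minus wild type, Benjamini-Hochberg over all of them, adjusted p under 0.05), with no filter. Gene names come from the array annotation (34945 probe sets with 1 gene), updated through RefSeq. The members and lists were chosen with earlier results of these data known. All members were named. Values per array are given for the 2 of largest difference in each role and those with unadjusted p under 0.05. Of the other axonemal genes those past the threshold, or the 2 of smallest p per list, were named. Glo1, the other neighbours of Dnah8 and Drc3, Foxj1, Mybl1, Meiob, Rnase10, the Leydig cell markers, Lrrc6 and Ccdc39 were named after their values were seen. Alternatives were filters, normalizations, variance models, array weights, the replicate block, the Gapdh covariate, probe set choices, a looser threshold and leaving out each array. The fit was tested on simulated data.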

Additional observations from a re-analysis of the deposited data

How the results depend on the processing

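The count of called member genes stayed at 0 under every alternative except 2, trend and robust eBayes and array weights, where it was 1 (Dnah8), with 1 probe set of the members. The weights were 4.7 for wild type replicate 3 and 0.327 for replicate 2, by the gene-by-gene algorithm chosen after seeing the data, since the default one did not converge and was not used. Of the 106 other axonemal genes, 2 passed with trend and robust eBayes (Drc3, Nme5), 3 with array weights (Drc3, Nme5, Ttll10), 0 with the Gapdh covariate, 0 with averaged probe sets and 0 to 1 without 1 array each.

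Over all probe sets the count of 200 became 306 with trend and robust eBayes, 1058 with array weights, 317 at an adjusted p under 0.1, 18 with the Gapdh covariate and 70 to 429 without 1 array each (429 without wild type replicate 2). With the replicate number as a block it was 117 and Dnah8 had an adjusted p of 0.339. Same-numbered arrays did not deviate together (correlations -0.319, -0.065 and -0.012), and no wild-type array correlated best with its own number. The block (Drc3 adjusted p = 0.0388) changed no call of the members or of Drc3.

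The members' median moved from -0.03 to 0.0354 with the Gapdh covariate, where 10 of 34 members changed sign (Dnaic2 read 0.69 and Spag17 0.67, adjusted p = 0.353 and 0.381) and Dnah17 moved from -0.11 to -0.68 (adjusted p = 0.346), and it ran from -0.0408 to 0.01 without 1 array each, being above 0 without wild type replicate 2 or transgenic replicate 3. The causes were not tested. Of 503 values of single members under the alternatives, 12 changed sign and lay at least the replicates' SD from the main value. Another 2, of Dnah8, gained a call, and 489 did neither. These 489 include shifts of any size without a change of sign, such as that of Dnah17. Low intensity limits what Dnah5 and Rsph4a can show.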

Other observations

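Lrrc6 and Ccdc39 serve dynein arm assembly and the spacing of arms along the doublet. Each had a dim further probe set with separate groups, as 11.3% of all probe sets did. By its name suffix, the dim Lrrc6 probe set may also detect other genes. Lrrc6 read 5.11, 5.59 and 5.69 in wild type and 6.35, 6.24 and 6.13 in transgenic testis (0.78, SE 0.15, limma adjusted p = 0.0814). The brighter Lrrc6 probe set, at 9.18 ± 0.10 and 9.25 ± 0.10, read 0.07. Ccdc39 read 3.76 ± 0.08 and 4.09 ± 0.06 with its dimmest probe set (0.33, adjusted p = 0.294), against 0.12 and -0.07 with the others. Atpaf2, the gene after Drc3 on chromosome 11 in the RefSeq order, read -0.24 (adjusted p = 0.677), and Gid4, which follows it, read -0.60 with 1 of its probe sets (adjusted p = 0.058) and from -0.07 to 0.07 with the others.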
